A study of Homo sapiens with 4 samples.

Results

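Amino acid transporters are described here through the 40 genes of the SLC1A, SLC3A, SLC7A, SLC36A, SLC38A and SLC43A families that the deposited counts list by those symbols, of 23228 genes in all. RNA-seq had been run on A673, an established Ewing sarcoma cell line that carries the EWSR1-FLI1 fusion, grown in medium with serum. The 4 libraries were cells transfected with an siRNA against FAT4, an atypical cadherin, and taken at 48 h or 24 h, and cells transfected with a scrambled control siRNA and taken at 48 h or 24 h. Each siRNA and time had 1 library, all 4 cultures had received the same lipid transfection reagent, and the number of different siRNA sequences against FAT4 is not given in the sources used here. The design asks which transcripts differ when FAT4 is depleted. Differences between the times were read from the same 4 libraries.

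Mammalian cells take up amino acids through carriers of several families. SLC1A carriers move glutamate or exchange small neutral amino acids, including glutamine, with the help of sodium. SLC7A carriers fall into cationic transporters, which work alone and import arginine and lysine, and light chains, which reach the cell surface only when bound to a heavy chain of the SLC3A family. SLC38A carriers are coupled to sodium and import glutamine and alanine, or act on lysosomal membranes, SLC36A carriers are coupled to protons, and SLC43A1 and SLC43A2 are facilitated carriers of large neutral amino acids. SLC43A3 carries purine nucleobases and not amino acids, and is kept here because its symbol belongs to the family. Several transporter genes are known targets of ATF4, the transcription factor of the amino acid response, and essential amino acids that enter through SLC7A5 and SLC3A2 are known to feed mTORC1 signalling.

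Gene counts totalled 15196813 to 22625833 per library, so that 3 counts, taken as the floor, equalled between 0.134 and 0.203 CPM (read counts made comparable between libraries by their totals and TMM factors). FAT4 itself was at 60.2 CPM with FAT4 siRNA and 148.7 CPM with control siRNA at 48 h, and at 71.8 CPM with FAT4 siRNA and 164.7 CPM with control siRNA at 24 h. Of 10 Ewing sarcoma markers, 9 were expressed, and CD99 was listed at 0 in all 4 libraries. The annotation and counting mode are not given, so the 0 for CD99 cannot be read as absence of its RNA, and its cause was not tested. The summed level of 5 epithelial markers was 0.0677 to 0.348 CPM, that of 4 leukocyte markers 0.348 to 0.541 CPM and that of 4 endothelial markers 1.08 to 2.06 CPM, with KRT5 and CD3E at 0 in every library.

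Expressed transporters, meaning those with a mean of at least 1 CPM over the 4 libraries, numbered 25 of 40. These were 4 of 7 SLC1A genes, 1 of 2 SLC3A genes, 8 of 13 SLC7A genes, 2 of 4 SLC36A genes, 8 of 11 SLC38A genes and 2 of 3 SLC43A genes. The same 25 passed the filter on low counts and entered the tests. Of the other 15, 8 had 0 counts in every library: SLC1A6, SLC1A7, SLC7A13, SLC7A14, SLC36A2, SLC36A3, SLC38A8 and SLC38A11. SLC1A2, SLC3A1, SLC7A4 and SLC38A3 did not pass 3 counts in any library. SLC7A9 and SLC7A10 reached at most 4 counts, and SLC43A2, a facilitated carrier of large neutral amino acids, had 9 counts with FAT4 siRNA and 2 with control siRNA at 48 h, and 1 count with each siRNA at 24 h. SLC3A1, the heavy chain of the kidney cystine transporter, and its light chain partners SLC7A9 and SLC7A13 were thus all at or near the floor.

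**Figure D1:**
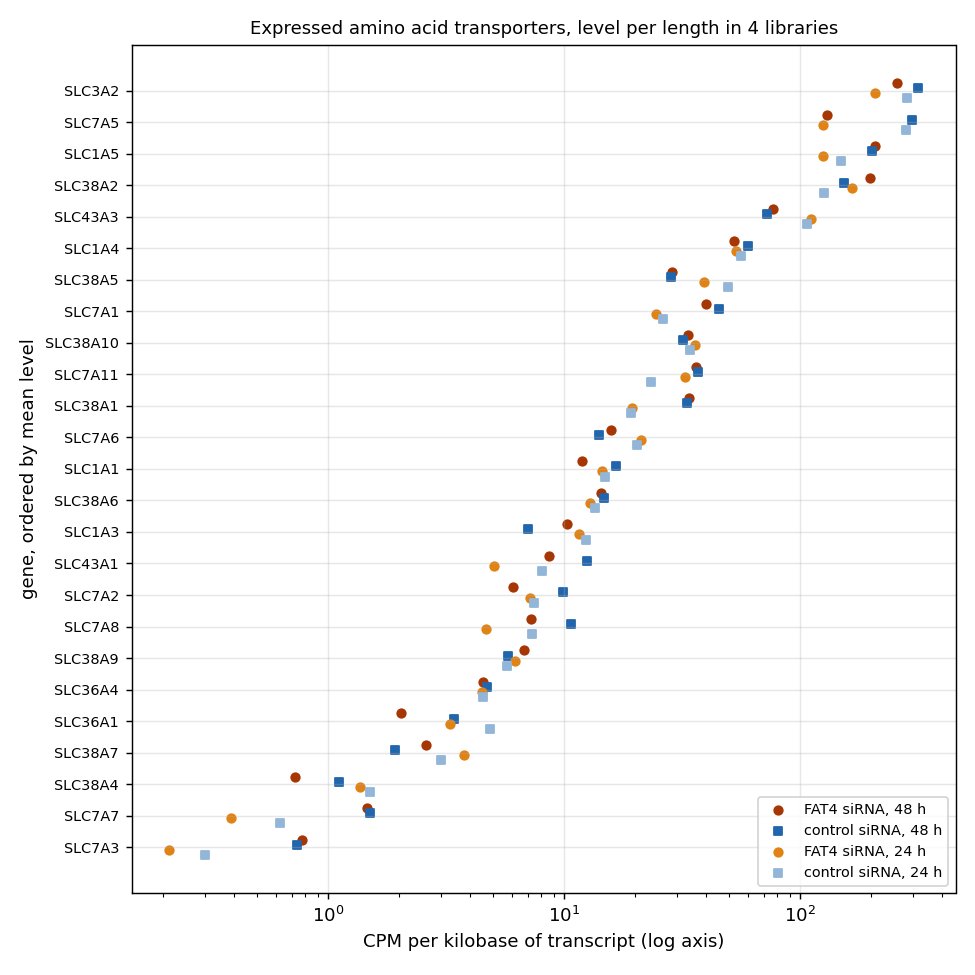
Level of each of the 25 expressed transporters in CPM per kilobase of transcript (log axis), with 1 point for each of the 4 libraries and genes ordered by their mean. SLC3A2 and SLC7A5 stand at the top with means of 266 and 208.6, and SLC7A3 is lowest at 0.504.

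Levels were compared between genes per length, as CPM divided by the length in kilobases of 1 annotated transcript for each gene. On this scale the heavy chain SLC3A2 had the highest mean over the 4 libraries, 266, followed by the light chain SLC7A5 with 208.6, the glutamine exchanger SLC1A5 with 170.6 and the sodium-coupled carrier SLC38A2 with 160.5. SLC43A3 followed with 91.5 and SLC1A4, an exchanger of alanine, serine and cysteine, with 55.5. Single libraries of neighbours in this order overlapped: SLC1A5 ranged from 125.1 to 206.4, SLC38A2 from 126.3 to 197, and SLC7A5 from 124.9 to 298.7. Within each library, SLC3A2 was above SLC7A5, though only at 284.4 against 281.5 in the control library at 24 h. That order rests on the transcript length used for each gene. From SLC38A5 to SLC7A6, 6 genes had means between 36.3 and 17.8, and the other 13 had means of 14.5 or less.

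The comparison of FAT4 siRNA with control siRNA over both times gave 1 transporter higher and 6 lower among the 25 tested. SLC7A5, the light chain of the main importer of large neutral amino acids, fell the furthest, to 0.439 of its level with control siRNA. Its heavy chain SLC3A2 fell to 0.771, and the related carriers of large neutral amino acids SLC7A8 and SLC43A1 fell to 0.658 and 0.661. The lysosomal proton-coupled carrier SLC36A1 and the cationic carrier SLC7A2 were the other genes that fell. SLC38A2, which imports glutamine and alanine and is known to respond to amino acid shortage, rose 1.30-fold. In bulk RNA a lower level in each cell and fewer cells that express the gene cannot be told apart.

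These calls come from edgeR's quasi-likelihood test with Benjamini-Hochberg adjustment at 0.05 over 13712 genes, with siRNA and time as additive terms. The share called higher was 4.0% of the expressed transporters against 11.9% of all genes tested, and the share called lower was 24.0% against 14.1%. In either direction it was 28.0% against 25.9%. The median log2 fold change was -0.11 over the 25 transporters and -0.01 over all tested genes. With 1 library for each siRNA and time, the p-values rest on a dispersion trend shared by all genes. They depend neither on a gene's own agreement between the times nor on how far cultures vary. A model without the time term called 0 transporters, with 1 at an unadjusted p under 0.05, DESeq2 called 1 higher and 5 lower, and offsets for GC content and length gave 3 higher and 7 lower. Over all genes, the model without the time term called 0 of 13712, and DESeq2 called 547 higher and 599 lower of 13712. The offsets gave 1203 higher and 1570 lower of 13120.

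SLC7A5 was at 587.2 CPM with FAT4 siRNA and 1355 CPM with control siRNA at 48 h, and at 566.9 CPM with FAT4 siRNA and 1277 CPM with control siRNA at 24 h. Both FAT4 siRNA libraries lay below both control libraries, with no overlap. At 48 h the ratio was 0.433 (95% counting interval 0.423 to 0.444) and at 24 h 0.444 (0.433 to 0.455). The edgeR log2 fold change was -1.19 (SE 0.0894, adjusted p = 1.26e-36), and with offsets for GC content and length it was -0.99 (adjusted p = 2.98e-10). SLC7A5 has near-identical pseudogene copies. Of these, SLC7A5P1 held 13 counts with FAT4 siRNA and 18 with control siRNA at 48 h, and 10 with FAT4 siRNA and 33 with control siRNA at 24 h. SLC7A5P2 held 18 with FAT4 siRNA and 38 with control siRNA at 48 h, and 17 with FAT4 siRNA and 32 with control siRNA at 24 h. These are a small fraction of the 9182 SLC7A5 counts with FAT4 siRNA at 48 h and 8377 at 24 h.

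SLC3A2 encodes the CD98 heavy chain, which carries 6 light chains of the SLC7A family to the surface. It was at 555.9 CPM with FAT4 siRNA and 681.6 CPM with control siRNA at 48 h, and at 447.4 CPM with FAT4 siRNA and 614.5 CPM with control siRNA at 24 h. The siRNA groups did not overlap, but the distance between them was smaller than for SLC7A5. The edgeR log2 fold change was -0.38 (SE 0.0883, adjusted p = 0.000279). Per length of 1 annotated transcript each, the SLC7A5 level was 0.503 of the SLC3A2 level with FAT4 siRNA and 0.947 with control siRNA at 48 h. At 24 h the value was 0.604 with FAT4 siRNA and 0.99 with control siRNA.

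**Figure D2:**
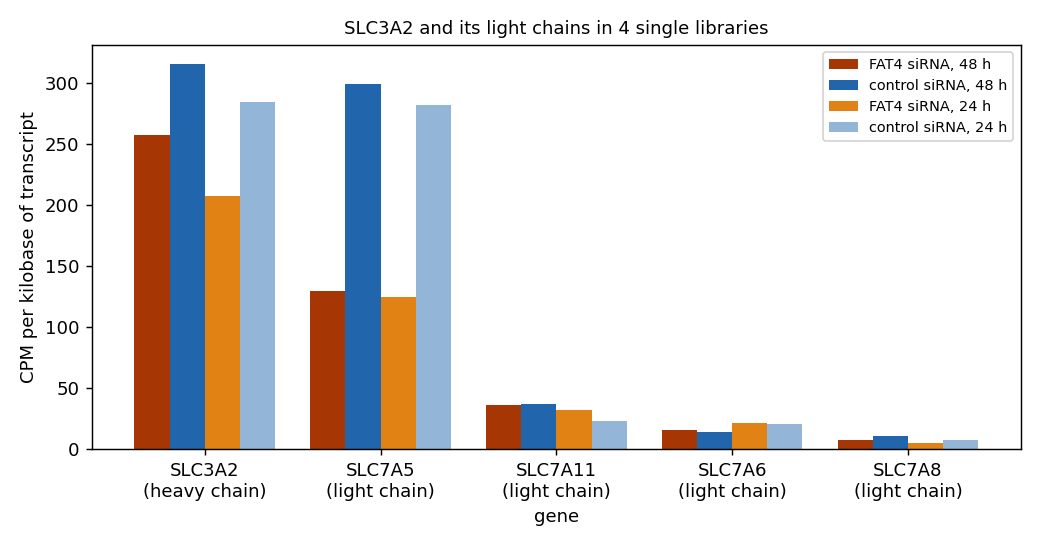
Level of the heavy chain SLC3A2 and of 4 of its light chains in CPM per kilobase of transcript, with bars for single libraries. SLC7A5 bars stand at 129.4 and 124.9 with FAT4 siRNA against 298.7 and 281.5 with control siRNA, while SLC7A11, SLC7A6 and SLC7A8 stay below 40 in each library.

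Among the 6 light chains of SLC3A2, SLC7A5 held most of the counts in every library, and its share was smaller with FAT4 siRNA. Shares of counts are not shares of molecules, because transcripts differ in length. They carry no correction for GC content, and their intervals cover counting error only. Between the siRNAs, the log2 fold changes of SLC7A5 and SLC7A11 were -1.19 and 0.22 in the additive fit. With offsets for GC content and length they were -0.99 and 0.05. SLC7A5 took 54.95% of the light chain counts with FAT4 siRNA (exact 95% interval 54.19 to 55.7) and 73.39% with control siRNA (72.93 to 73.84) at 48 h. At 24 h it took 54.9% with FAT4 siRNA (54.11 to 55.69) and 76.82% with control siRNA (76.39 to 77.25). The share of SLC7A11 was 32.52% with FAT4 siRNA and 19.18% with control siRNA at 48 h, and 30.23% with FAT4 siRNA and 13.53% with control siRNA at 24 h. At 48 h the level of SLC7A11 itself was nearly equal, 347.5 CPM with FAT4 siRNA and 354.2 CPM with control siRNA. Its larger share there thus goes with a smaller light chain total. Summed over the 6 light chains, the level per length was 190.1 with FAT4 siRNA and 361.7 with control siRNA at 48 h, and 183.5 with FAT4 siRNA and 333.1 with control siRNA at 24 h. That sum was 0.739 of the SLC3A2 level with FAT4 siRNA and 1.15 of it with control siRNA at 48 h, and 0.886 with FAT4 siRNA and 1.17 with control siRNA at 24 h.

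SLC7A8, a light chain that carries both large and small neutral amino acids, was at 30.3 CPM with FAT4 siRNA and 44.9 CPM with control siRNA at 48 h, and at 19.6 CPM with FAT4 siRNA and 30.7 CPM with control siRNA at 24 h. It was lower with FAT4 siRNA within each time, whereas the FAT4 siRNA library at 48 h was close to the control library at 24 h. Its edgeR log2 fold change was -0.60 (SE 0.127, adjusted p = 4.0e-05). SLC43A1, a facilitated carrier of large neutral amino acids, was at 22.4 CPM with FAT4 siRNA and 32.4 CPM with control siRNA at 48 h, and at 13.1 CPM with FAT4 siRNA and 21 CPM with control siRNA at 24 h. Like SLC7A8, it was lower with FAT4 siRNA within each time and higher at 48 h under each siRNA. Its edgeR log2 fold change was -0.60 (SE 0.139, adjusted p = 0.000233), and DESeq2 called SLC43A1 only just (adjusted p = 0.0496).

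SLC7A11, the light chain that exchanges cystine for glutamate and supplies cysteine for glutathione, differed at 1 time. It was at 347.5 CPM with FAT4 siRNA and 354.2 CPM with control siRNA at 48 h, and at 312.2 CPM with FAT4 siRNA and 224.8 CPM with control siRNA at 24 h. The control library at 24 h was the low one, and the other 3 lay close together. On the log2 scale the siRNAs differed by -0.03 at 48 h and by 0.47 at 24 h, and the log2 fold change over both times of 0.22 missed the threshold (SE 0.0895, edgeR adjusted p = 0.0511). It passed with RLE size factors (adjusted p = 0.0392) and when genes averaging under 5 CPM were left out (adjusted p = 0.0384), and was 0.05 with the correction for GC content and length (adjusted p = 0.698). SLC7A6, which exchanges cationic for neutral amino acids, had a log2 fold change of 0.11 (SE 0.0956, edgeR adjusted p = 0.42). The antisense neighbour SLC7A6OS had one of 0.07 (adjusted p = 0.765). SLC7A7, of like function to SLC7A6, had 56 counts with FAT4 siRNA and 74 with control siRNA at 48 h and 14 with FAT4 siRNA and 34 with control siRNA at 24 h. Its log2 fold change of -0.25 was not called (SE 0.314, edgeR adjusted p = 0.598).

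The cationic carriers, which import arginine and lysine without a heavy chain, differed among themselves. SLC7A1 was at 291.8 CPM with FAT4 siRNA and 332.6 CPM with control siRNA at 48 h, and at 180.3 CPM with FAT4 siRNA and 192.8 CPM with control siRNA at 24 h. Its log2 fold change of -0.14 was not called (SE 0.0899, edgeR adjusted p = 0.241). SLC7A2 was at 46.1 CPM with FAT4 siRNA and 75.6 CPM with control siRNA at 48 h, and at 54.5 CPM with FAT4 siRNA and 56.7 CPM with control siRNA at 24 h. The difference thus lay at 48 h, with a ratio of 0.61 (counting interval 0.558 to 0.667), against 0.961 (0.879 to 1.05) at 24 h. Over both times SLC7A2 fell by 0.38 on the log2 scale (SE 0.108, edgeR adjusted p = 0.00294), and DESeq2 did not call it (adjusted p = 0.199). SLC7A3 held 27 counts with FAT4 siRNA and 33 with control siRNA at 48 h and 7 with FAT4 siRNA and 15 with control siRNA at 24 h, too few to place its ratio at either time.

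**Figure D3:**
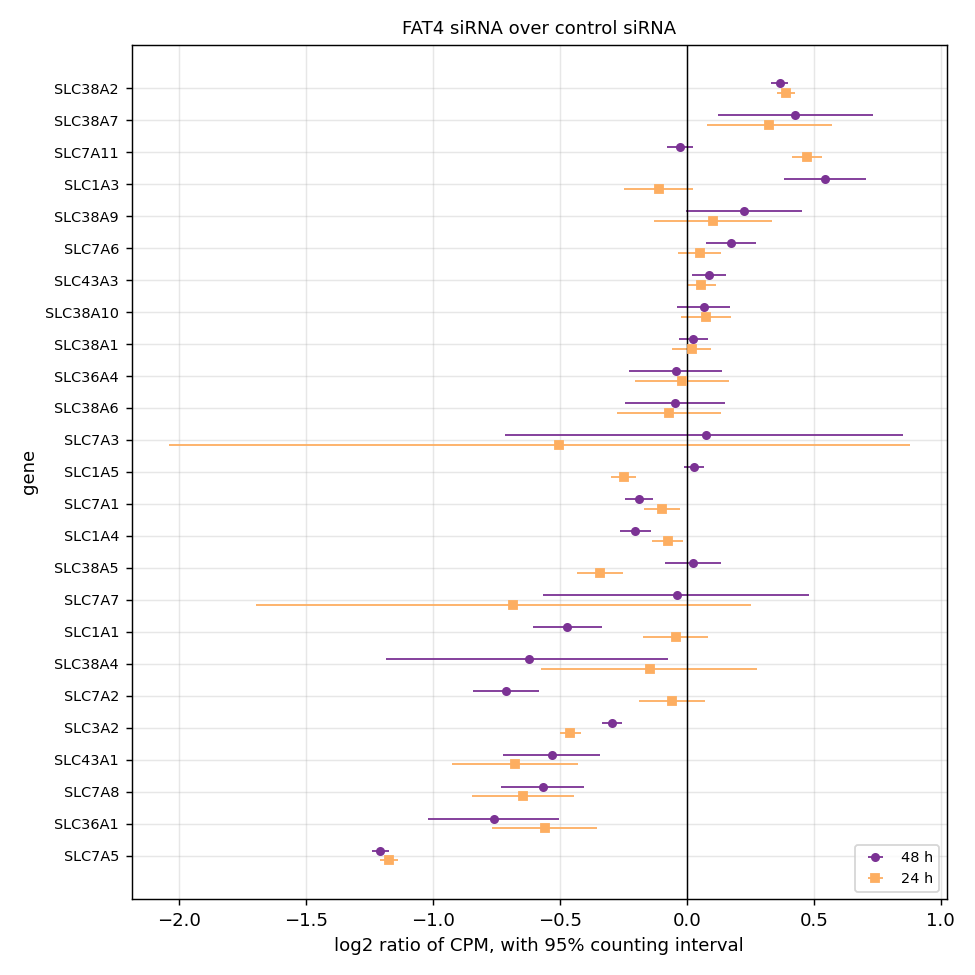
Log2 ratio of FAT4 siRNA over control siRNA for the 25 expressed transporters at 48 h and at 24 h, with exact 95% counting intervals and genes ordered by the log2 fold change over both times. SLC7A5 lies at -1.21 at 48 h and -1.17 at 24 h, apart from the others, and SLC38A2 at 0.37 and 0.39.

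SLC38A carriers held the one member that rose. SLC38A2 was at 962.7 CPM with FAT4 siRNA and 747.1 CPM with control siRNA at 48 h, and at 809.8 CPM with FAT4 siRNA and 617.5 CPM with control siRNA at 24 h. It was higher with FAT4 siRNA within each time, and both FAT4 siRNA libraries lay above both control libraries. The edgeR log2 fold change was 0.38 (SE 0.0882, adjusted p = 0.000244), and with the correction for GC content and length it was 0.21 (adjusted p = 0.0378). SLC38A7, a lysosomal exporter of glutamine, was at 11.8 CPM with FAT4 siRNA and 8.75 CPM with control siRNA at 48 h, and at 17.1 CPM with FAT4 siRNA and 13.7 CPM with control siRNA at 24 h. Its log2 fold change of 0.37 was not called (SE 0.162, edgeR adjusted p = 0.0734), and was 0.51 with the correction (adjusted p = 0.0166).

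SLC38A9, the lysosomal arginine sensor of mTORC1, was at 19.7 CPM with FAT4 siRNA and 16.9 CPM with control siRNA at 48 h, and at 18 CPM with FAT4 siRNA and 16.7 CPM with control siRNA at 24 h. Its log2 fold change of 0.16 was not called (SE 0.145, edgeR adjusted p = 0.433). SLC38A1, a sodium-coupled importer of glutamine, had one of 0.02 (SE 0.0909, adjusted p = 0.886), with 271 CPM with FAT4 siRNA and 266.1 CPM with control siRNA at 48 h and 156.2 CPM with FAT4 siRNA and 154.2 CPM with control siRNA at 24 h. SLC38A4, SLC38A5, SLC38A6 and SLC38A10 had log2 fold changes of -0.35, -0.16, -0.06 and 0.07 and were not called. With offsets for GC content and length SLC38A10 was called, at 0.32 (adjusted p = 0.00626). Of these, SLC38A5, a glutamine carrier that can run in both directions, differed between the siRNAs by 0.03 at 48 h and by -0.34 at 24 h on the log2 scale.

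SLC36A1 exports small neutral amino acids from lysosomes with protons. It was at 11.7 CPM with FAT4 siRNA and 19.8 CPM with control siRNA at 48 h, and at 18.9 CPM with FAT4 siRNA and 27.9 CPM with control siRNA at 24 h. The ratio was 0.592 at 48 h (counting interval 0.494 to 0.706) and 0.679 at 24 h (0.588 to 0.783), and the FAT4 siRNA library at 24 h lay just below the control library at 48 h. Over both times it fell by 0.65 on the log2 scale (SE 0.144, edgeR adjusted p = 9.38e-05), and DESeq2 called it near the threshold (adjusted p = 0.0404). SLC36A4, a carrier of proline and tryptophan, was at 26.9 to 28.1 CPM in all 4 libraries, with a log2 fold change of -0.03 (SE 0.13, adjusted p = 0.893).

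None of the 4 expressed SLC1A genes was called in the additive edgeR fit or by DESeq2, while SLC1A1 had an unadjusted edgeR p under 0.05 and was called lower with offsets for GC content and length (-0.33, adjusted p = 0.0164). SLC1A5 was at 594.8 CPM with FAT4 siRNA and 582.7 CPM with control siRNA at 48 h, and at 360.5 CPM with FAT4 siRNA and 428.3 CPM with control siRNA at 24 h, with a log2 fold change of -0.11 (SE 0.0884, edgeR adjusted p = 0.389). SLC1A4 was at 238.1 CPM with FAT4 siRNA and 274 CPM with control siRNA at 48 h, and at 243.7 CPM with FAT4 siRNA and 256.8 CPM with control siRNA at 24 h, with one of -0.14 (SE 0.0897, adjusted p = 0.26). The glutamate carriers SLC1A1 and SLC1A3 each differed at 48 h. SLC1A1 had a ratio of 0.722 at 48 h (counting interval 0.657 to 0.793) and 0.97 at 24 h (0.886 to 1.06). SLC1A3 had a ratio of 1.46 at 48 h (1.3 to 1.63) and 0.926 at 24 h (0.842 to 1.02). In the fit over both times the log2 fold change was -0.26 for SLC1A1 (SE 0.11, edgeR adjusted p = 0.069) and 0.21 for SLC1A3 (SE 0.117, adjusted p = 0.188). SLC43A3 was at 201.1 CPM with FAT4 siRNA and 189.3 CPM with control siRNA at 48 h, and at 289.7 CPM with FAT4 siRNA and 278.4 CPM with control siRNA at 24 h, with a log2 fold change of 0.07 (SE 0.09, adjusted p = 0.602).

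At single times, where 1 library stood against 1 and no test is possible, 4 of the 25 expressed transporters were at least 1.5-fold lower with FAT4 siRNA at 48 h and 0 at least 1.5-fold higher. Of 12521 genes that averaged 1 CPM or more, 9.12% were that much lower and 5.78% that much higher at 48 h. The 4 were SLC7A5, SLC36A1, SLC7A2 and SLC38A4. At 24 h 4 were lower and 0 higher, against 7.15% and 3.74% of all such genes, and these 4 were SLC7A5, SLC7A8, SLC43A1 and SLC7A7, of which SLC7A7 had a counting interval that included 1. With the correction for GC content and length, the count of lower transporters at 24 h was 2. The siRNA ratios at 48 h and 24 h come from separate libraries. The log2 ratio at 48 h differed from that at 24 h by at least 0.5 for 5 transporters, SLC1A3, SLC7A2, SLC7A3, SLC7A7 and SLC7A11, and such differences cannot be tested with 1 library each.

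Summed over the 40 genes, transporters took 0.467% of all gene counts with FAT4 siRNA (exact 95% interval 0.464 to 0.471) and 0.552% with control siRNA (0.549 to 0.555) at 48 h. At 24 h the share was 0.389% with FAT4 siRNA (0.386 to 0.392) and 0.467% with control siRNA (0.464 to 0.47). Without SLC7A5 the summed level was 4019 CPM with FAT4 siRNA and 4029 CPM with control siRNA at 48 h, and 3432 CPM with FAT4 siRNA and 3451 CPM with control siRNA at 24 h. The sums without SLC7A5 were thus nearly equal between the siRNAs, but they add genes that moved both ways. SLC38A2 was higher with FAT4 siRNA, at 962.7 against 747.1 CPM at 48 h and 809.8 against 617.5 CPM at 24 h. SLC3A2 was lower, at 555.9 against 681.6 CPM at 48 h and 447.4 against 614.5 CPM at 24 h. SLC7A8, SLC43A1, SLC36A1 and SLC7A2 were also called lower. SLC7A5 took 12.75% of transporter counts with FAT4 siRNA and 25.17% with control siRNA at 48 h, and 14.18% with FAT4 siRNA and 27.01% with control siRNA at 24 h. SLC38A2 took 20.9% with FAT4 siRNA and 13.88% with control siRNA at 48 h, and 20.25% with FAT4 siRNA and 13.06% with control siRNA at 24 h, so it was the most counted transporter with FAT4 siRNA and SLC7A5 was with control siRNA.

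The hexamer CACGTG, an E-box that MYC with MAX, and MITF and TFEB, are known to bind, was searched in RefSeq promoters (250 bases before to 50 bases after a gene's start, build GRCh38.p14). A promoter was in the table for 21 of the 25 expressed transporters, and CACGTG reads the same on both strands. Of the 5 lower transporters with a promoter entry, SLC7A5, SLC7A8, SLC43A1 and SLC36A1 held it and SLC3A2 did not. The 30 bases around each match in those 4 genes are shown because these are the carriers that fell the furthest, with the hexamer in capitals.
SLC7A5, chr16:87869620-87869649, minus strand, 130 bases before the start: ggccggacgacgCACGTGctccgagctggg
SLC7A8, chr14:23154505-23154534, minus strand, 129 bases before the start: cacaattagaaaCACGTGctcagttccttc
SLC43A1, chr11:57515797-57515826, minus strand, 112 bases before the start: cagcgggcgagtCACGTGcgcgtgaaactc
SLC36A1, chr5:151447548-151447577, plus strand, 43 bases before the start: cgctcaagggagCACGTGacctcggcctct
SLC36A1, chr5:151447583-151447612, plus strand, 8 bases before the start: gggcggtgggatCACGTGatgaggtccgga

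CACGTG was also in promoters of SLC1A5, SLC38A5, SLC38A7 and SLC7A7, which were not called between the siRNAs. It occurred in 8 of the 21 expressed transporters with a promoter, against 12.7% of 9392 tested genes with one and 7.26% of all 35116 promoters in the table. Among all genes called lower with FAT4 siRNA 12.3% held it, and among those called higher 11.5%. The search was made after the calls were known. MYC itself was at 182.9 CPM with FAT4 siRNA and 160.7 CPM with control siRNA at 48 h, and at 174.1 CPM with FAT4 siRNA and 172.6 CPM with control siRNA at 24 h, with a log2 fold change of 0.10 that was not called (SE 0.0922, edgeR adjusted p = 0.457).

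Other genes of amino acid handling were read from lists. Among 32 other amino acid carriers in the files, such as the SLC6A carriers of the surface and the SLC25A carriers of mitochondria, 19 were tested, 1 rose and 6 fell, with a median log2 fold change of -0.18. Over all tested genes, 11.9% were called higher and 14.1% lower, with a median of -0.01. SLC25A44, a mitochondrial carrier of branched-chain amino acids, fell by 0.71 (SE 0.116, edgeR adjusted p = 4.07e-08), and the aspartate and glutamate carriers SLC25A13 and SLC25A12 fell by 0.60 and 0.50. The mitochondrial serine carrier SFXN1 rose by 0.67 (SE 0.109, adjusted p = 4.39e-08). Among 33 genes of amino acid sensing by mTORC1, 32 were tested, 3 rose and 3 fell, with a median of -0.02, which is no larger a share in either direction than the 11.9% and 14.1% over all tested genes. The leucine sensor SESN2 had a log2 fold change of -0.42 that was called by edgeR (adjusted p = 0.00639) but not by DESeq2 (adjusted p = 0.141), nor with offsets for GC content and length (-0.28, adjusted p = 0.0777). ATF4, whose log2 fold change of 0.11 was not called (SE 0.089, adjusted p = 0.373), was at 461.3 CPM with FAT4 siRNA and 396 CPM with control siRNA at 48 h, and at 259 CPM with FAT4 siRNA and 258.6 CPM with control siRNA at 24 h.

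Between 48 h and 24 h, with both siRNAs in the fit, 10 of the 25 transporters were higher at 48 h and 7 lower. The glutamine carriers SLC38A1 and SLC1A5, the cationic carrier SLC7A1 and the large neutral carriers SLC43A1 and SLC7A8 rose about 1.5-fold or more, with SLC38A1 highest among them at 1.73-fold. The glutamine carrier SLC38A5, the nucleobase carrier SLC43A3, the exchanger SLC7A6 and the lysosomal carriers SLC36A1 and SLC38A7 fell to between 0.647 and 0.721 of their 24 h level. SLC7A5 did not pass the test, with a log2 fold change of 0.07 (SE 0.0882, edgeR adjusted p = 0.608). The shares called were 40.0% higher and 28.0% lower, against 13.8% and 12.8% of the 13712 genes tested, or 68.0% against 26.6% in either direction. The median log2 fold change was 0.07 over the transporters and 0.01 over all tested genes. All 17 called transporters had the same sign under both siRNAs. The fit calls genes on the mean of these changes, so the shared sign is no separate check. Under FAT4 siRNA alone, 7 transporters were at least 1.5-fold higher at 48 h and 2 lower, against 10.7% and 4.79% of genes that averaged 1 CPM or more. Under control siRNA alone, 6 were higher and 3 lower, against 8.14% and 3.42%. DESeq2 called 6 higher and 3 lower, and a model without the siRNA term called 0, with 10 at an unadjusted p under 0.05. Over all 13712 genes, DESeq2 called 515 higher and 618 lower, and the model without the siRNA term called 46 higher and 4 lower.

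**Figure D4:**
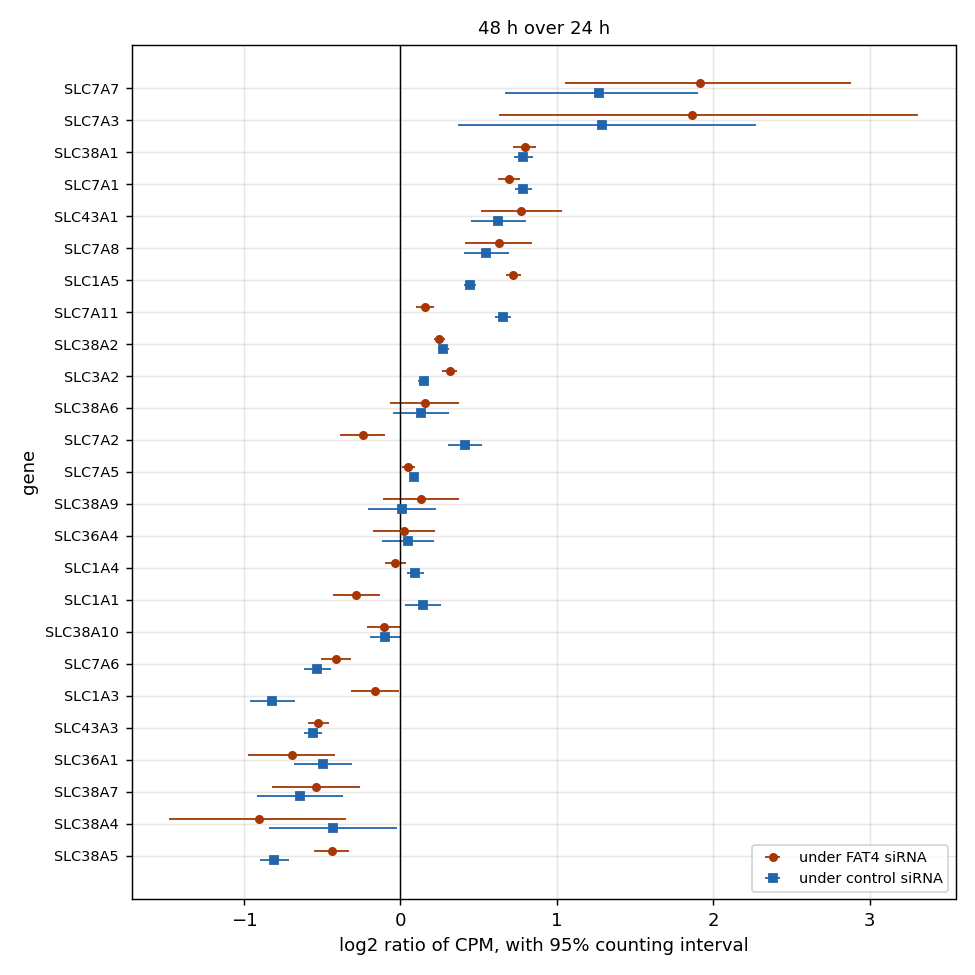
Log2 ratio of 48 h over 24 h for the 25 expressed transporters under FAT4 siRNA and under control siRNA, with exact 95% counting intervals and genes ordered by the log2 fold change over both siRNAs. SLC38A1 lies at 0.80 and 0.79, and SLC7A2 and SLC1A1 lie on opposite sides of 0 under the 2 siRNAs with intervals that exclude 0.

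SLC38A1 was at 271 CPM at 48 h and 156.2 CPM at 24 h under FAT4 siRNA, and at 266.1 CPM at 48 h and 154.2 CPM at 24 h under control siRNA. Both libraries at 48 h lay far above both at 24 h, and the siRNAs were nearly equal within each time. Its edgeR log2 fold change was 0.79 (SE 0.0914, adjusted p = 7.67e-16). SLC7A1 was at 291.8 CPM at 48 h and 180.3 CPM at 24 h under FAT4 siRNA, and at 332.6 CPM at 48 h and 192.8 CPM at 24 h under control siRNA, a log2 fold change of 0.74 (SE 0.0903, adjusted p = 2.87e-14). SLC1A5 was at 594.8 CPM at 48 h and 360.5 CPM at 24 h under FAT4 siRNA, and at 582.7 CPM at 48 h and 428.3 CPM at 24 h under control siRNA, a log2 fold change of 0.58 (SE 0.0887, adjusted p = 3.17e-09).

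SLC43A1 rose by 0.69 (SE 0.139, edgeR adjusted p = 1.39e-05) and SLC7A8 by 0.58 (SE 0.127, adjusted p = 7.11e-05) on the log2 scale. These genes were thus lower with FAT4 siRNA and higher at 48 h. SLC7A11 rose by 0.41 (SE 0.0896, adjusted p = 9.39e-05), with a ratio of 1.11 under FAT4 siRNA (counting interval 1.07 to 1.16) and 1.57 under control siRNA (1.52 to 1.63). SLC38A2 rose by 0.26 (adjusted p = 0.0158) and SLC3A2 by 0.23 (adjusted p = 0.0371), neither of them called by DESeq2 (adjusted p = 0.112 and 0.215). Under the single siRNAs the log2 ratio of SLC3A2 was 0.31 with FAT4 siRNA and 0.15 with control siRNA. The weakly expressed SLC7A7 and SLC7A3 rose by 1.52 (SE 0.318, adjusted p = 3.2e-05) and 1.51 (SE 0.443, adjusted p = 0.00476), on 56 and 27 counts at 48 h and 14 and 7 counts at 24 h under FAT4 siRNA, and 74 and 33 counts at 48 h and 34 and 15 counts at 24 h under control siRNA. DESeq2 called neither.

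SLC38A5 was at 76.3 CPM at 48 h and 103.5 CPM at 24 h under FAT4 siRNA, and at 74.96 CPM at 48 h and 131 CPM at 24 h under control siRNA. On the log2 scale it fell by 0.63, with -0.44 under FAT4 siRNA and -0.81 under control siRNA (SE 0.0976, edgeR adjusted p = 7.48e-09). SLC43A3 was at 201.1 CPM at 48 h and 289.7 CPM at 24 h under FAT4 siRNA, and at 189.3 CPM at 48 h and 278.4 CPM at 24 h under control siRNA, and fell by 0.54 (SE 0.0902, adjusted p = 8.21e-08). SLC7A6 was at 99.8 CPM at 48 h and 132.6 CPM at 24 h under FAT4 siRNA, and at 88.5 CPM at 48 h and 128.1 CPM at 24 h under control siRNA, and fell by 0.47 (SE 0.0957, adjusted p = 1.74e-05). In each of these 3 genes the libraries at 48 h all lay below those at 24 h. SLC38A4, a carrier best known from liver and placenta, had 2.75 CPM at 48 h and 5.14 CPM at 24 h under FAT4 siRNA, and 4.22 CPM at 48 h and 5.69 CPM at 24 h under control siRNA. It fell by 0.63 (SE 0.239, adjusted p = 0.0354), a call that DESeq2 did not make (adjusted p = 0.39).

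SLC36A1 and SLC38A7 fell by 0.58 (SE 0.143, edgeR adjusted p = 0.000521) and 0.59 (SE 0.162, adjusted p = 0.0023), and the glutamate carrier SLC1A3 by 0.49 (SE 0.117, adjusted p = 3e-04). DESeq2 called none of these 3, at adjusted p = 0.0634, 0.135 and 0.0757. SLC1A3 was at 42.8 CPM at 48 h and 47.9 CPM at 24 h under FAT4 siRNA, and at 29.3 CPM at 48 h and 51.7 CPM at 24 h under control siRNA, so that the control library at 48 h was the low one. Its log2 ratio was -0.16 under FAT4 siRNA and -0.82 under control siRNA. SLC1A1, SLC1A4, SLC7A2, SLC7A5, SLC36A4, SLC38A6, SLC38A9 and SLC38A10 were not called between the times.

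Of the 7 transporters known as ATF4 targets, 5 rose at 48 h and 0 fell, with a median log2 fold change of 0.26. The shares called at 48 h were 40.0% higher and 28.0% lower over the 25 transporters, and 13.8% higher and 12.8% lower over all tested genes. With FAT4 siRNA, 1 of the 7 rose and 2 fell, with a median of -0.14, against 11.9% higher and 14.1% lower over all tested genes. Those that rose at 48 h were SLC7A1, SLC1A5, SLC7A11, SLC38A2 and SLC3A2, and SLC1A4 and SLC7A5 were not called. Over all 13712 genes tested the medians were 0.01 between the times and -0.01 between the siRNAs. ATF4 mRNA was at 461.3 CPM at 48 h and 259 CPM at 24 h under FAT4 siRNA, and at 396 CPM at 48 h and 258.6 CPM at 24 h under control siRNA, and rose by 0.72 (SE 0.0894, edgeR adjusted p = 7.56e-14). From the lists of other carriers and of sensing genes, the glycine transporter SLC6A9 rose by 1.38 (SE 0.114, adjusted p = 3.3e-31) and SESN2 by 1.99 (SE 0.129, adjusted p = 1.62e-50). The list of other amino acid carriers had 3 higher and 6 lower of 19 at 48 h, and that of amino acid sensing had 5 higher and 6 lower of 32, against 13.8% higher and 12.8% lower over all tested genes. TXNIP, an arrestin that lowers nutrient transporters at the surface, rose by 2.08 (SE 0.125, adjusted p = 2.7e-58).

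The core of the C/EBP-ATF response element, TGATGNAA (searched on both strands), was searched in the same promoters. It was in promoters of 6 of the 21 expressed transporters with an entry, against 2.91% of tested genes and 3.62% of all promoters. The 30-base windows are shown because they cover carriers that rose at 48 h, namely SLC38A1, SLC7A1, SLC1A5 and SLC3A2, as well as SLC1A4, which was not called, and SLC1A3, which fell, with the match in capitals.
SLC38A1, chr12:46266502-46266531, minus strand, 4 bases before the start: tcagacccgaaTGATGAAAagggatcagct
SLC7A1, chr13:29595663-29595692, minus strand, from base 8 after the start: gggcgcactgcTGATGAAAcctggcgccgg
SLC1A5, chr19:46784893-46784922, minus strand, 97 bases before the start: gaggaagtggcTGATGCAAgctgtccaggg
SLC3A2, chr11:62881719-62881748, plus strand, from base 38 after the start: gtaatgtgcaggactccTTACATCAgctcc
SLC1A4, chr2:64989381-64989410, plus strand, 7 bases before the start: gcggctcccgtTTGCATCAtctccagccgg
SLC1A3, chr5:36596357-36596386, plus strand, 220 bases before the start: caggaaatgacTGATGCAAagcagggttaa

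Of the 8 transporters called higher at 48 h that had a promoter entry, 4 held the element, against 4.42% of all genes called higher and 1.77% of those called lower at 48 h. In SLC1A5, which has more than 1 start in the table, the element and CACGTG lie before different starts, and no printed match overlaps another. Another motif searched, the antioxidant response core TGACNNNGC (both strands), was in 7 of the 21 expressed transporters, against 19.4% of tested genes. TGACNNNGC and CACGTG were each also in 4 of the 8 transporters called higher at 48 h. The counts were thus equal, but the shares among all tested genes with a promoter were not. These were 2.91% for the C/EBP-ATF element, 12.7% for CACGTG and 19.4% for TGACNNNGC. Whether any of these motifs was more frequent in the 8 than in other genes was not tested. Of the 6 transporters called lower at 48 h with a promoter entry, 1 held the C/EBP-ATF element, 3 held CACGTG and 2 held TGACNNNGC. These matches describe the letters in a window and not binding. SLC7A11, SLC7A2 and 2 other expressed transporters were outside the promoter table.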

How the data were processed

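A673 RNA went into 4 libraries with a stranded mRNA kit, per the labels' protocols. Build hg19 and the tools HTSeq, SAMtools, TopHat2 and CASAVA 1.8.2 are named, without settings, in the processing notes of the submitters. The deposited values were raw read counts per gene, 1 library per file. For the annotation, counting mode and strand setting, nothing is given in the sources used here, so counts of overlapping genes and of near-identical copies are uncertain. The 5 counter entries that name no gene were left out. Of them, reads outside genes were 19.5% to 20.5% of reads placed once, and reads on more than 1 gene 0.772% to 0.804%.

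edgeR 4.0.16 (R 4.3.3) was run on these counts with TMM factors of 0.9727 to 1.026, filterByExpr with a minimum count of 10 and a minimum total of 15, and a quasi-likelihood fit with additive terms for siRNA and time, tested two-sided, on all 4 libraries. It leaves 1 residual degree of freedom, so a single dispersion trend served every gene (common BCV, the biological coefficient of variation, 0.0737), and the replicate spread is unknown. SE is the absolute log2 fold change divided by the square root of F. Ratios at single times or siRNAs are of TMM-scaled CPM with nothing added, and their exact 95% Clopper-Pearson intervals, like the floor of 3 counts, cover counting error only. Length and GC content came from 1 GENCODE release 29 transcript per gene, matched for 95.7% of tested genes and for all 25 expressed transporters. Alternatives were DESeq2 1.42.0, RLE or total-count scaling, other filters, single-term models and spline offsets for GC content (5 df) and length (4 df). The edgeR fit was first run on simulated counts drawn with its own common dispersion, which cannot test the spread between cultures.

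Transporters named with values in all libraries were those called in either comparison (largest first), the 6 of highest level per length, and SLC7A5, SLC3A2, SLC7A11, SLC38A2, SLC1A5 and SLC38A9. The members and lists were chosen with earlier results of these data known. MYC, ATF4 and TXNIP come from a list of regulators with 9 tested genes. Of these, 2 rose and 0 fell with FAT4 siRNA, namely NFE2L2 and NEDD4, and 1 rose with offsets for GC content and length. At 48 h 4 rose and 0 fell, namely ATF4, NFE2L2, NEDD4 and TXNIP. Of the 9 tested Ewing sarcoma markers, 1 rose and 4 fell with FAT4 siRNA. Over all tested genes, 11.9% rose and 14.1% fell with FAT4 siRNA, and 13.8% rose and 12.8% fell at 48 h.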

Additional observations from a re-analysis of the deposited data

Results flagged for a closer look

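SLC7A2 and SLC1A1 moved in opposite directions with time under the 2 siRNAs, with counting intervals on opposite sides of 1. For SLC7A2 the 48 h over 24 h log2 ratio was -0.24 under FAT4 siRNA and 0.41 under control siRNA, a difference of -0.66. For SLC1A1 it was -0.28 under FAT4 siRNA and 0.14 under control siRNA, a difference of -0.43. These differences were not tested, because each siRNA and time had 1 library.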

How the results depend on the processing

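The counts of called transporters changed by over 1.5 times under some settings. The model without the other factor called 0 higher and 0 lower for the siRNAs and 0 higher and 0 lower for the times. Over all 13712 genes it called 0 for the siRNAs, and 46 higher and 4 lower for the times. Between the siRNAs, 1 transporter was higher in the additive fit, 2 with RLE size factors, 2 when genes averaging under 5 CPM were left out, and 3 with GC content and length offsets. Over all genes tested, the counts higher were 1625 of 13712, 1705 of 13712, 1643 of 10596 and 1203 of 13120, in that order. Between the times, DESeq2 called 6 higher and 3 lower, against 10 and 7 in edgeR. Over all genes tested, DESeq2 called 515 higher and 618 lower, against 1892 and 1754 in edgeR. At 24 h, 2 transporters were at least 1.5-fold lower with the GC content and length offsets, against 4. With these offsets the sign turned for SLC1A5 (0.06) and SLC38A1 (-0.05) between the siRNAs and for SLC36A4 (-0.06) between the times, none of them called there in either fit; the cause was not tested. Between the siRNAs, SLC38A10 (0.32), SLC38A7 (0.51) and SLC1A1 (-0.33) were called with the offsets only. When a library was left out, the ratio of the pair without it was read, with no new fit. No called transporter changed sign in that ratio. The calls rest on the mean of both pairs, so this is no separate check. Leaving out a 48 h library gave SLC7A2 a log2 ratio of -0.06, and leaving out a 24 h library -0.71. No paired analysis was possible because each group has 1 library and the replicate numbers pair nothing. Depth limits SLC7A3 and SLC7A7, whose intervals for the siRNA ratio include 1 at both times.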
